A study of Mus musculus with 2 samples.

Results

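Respiratory complex I, the NADH:ubiquinone oxidoreductase of the inner mitochondrial membrane, was followed here through its nuclear genes in the mouse adrenal gland. The genes were taken by name: annotated genes whose symbol begins with Ndufa, Ndufb, Ndufc, Ndufs, Ndufv, Ndufab or Ndufaf, without symbols containing -ps. This rule took 47 genes of the 18179 annotated genes with a read, and all 47 had reads in both libraries. They lay on 17 chromosomes. By role they comprised 7 core subunits, 29 accessory subunits, 8 assembly factors, Ndufa4 with its paralog Ndufa4l2, and Ndufs6b, which the annotation lists as a processed pseudogene. Ndufa4 and Ndufa4l2 carry complex I names, but Ndufa4 is now placed with cytochrome c oxidase, complex IV.

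The study sequenced full-length cDNA from adrenal gland tissue with long reads. It had 1 group of 2 libraries: female mice of the F1 hybrid strain B6CASTF1/J at 10 days of age, with no treatment and no second condition. Each library is described as coming from animal 03, but the tissue behind replicate 2 is described as that of animal 04, so it is not certain that separate animals were used. The libraries held 593058 reads in replicate 1 and 772037 in replicate 2 after spike-in reads were set aside. Each long read was counted as 1 molecule, and levels are reads per 1000000 such reads (CPM). A gene with 0 reads could still have had up to 5.06 CPM in replicate 1 and 3.89 CPM in replicate 2, the level of 3 reads. Tests set the reads of replicate 1 against those of replicate 2; they compare 2 libraries, not conditions, and the exact binomial and Fisher's tests and the 95% Clopper-Pearson intervals cover counting error only. EdgeR's negative binomial test also allows for a spread between libraries, estimated from these 2.

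In complex I, core subunits of the arm in the matrix pass electrons from NADH over a flavin and a chain of iron-sulfur clusters to ubiquinone, and the core subunits of the membrane arm, which mitochondrial DNA encodes, use the released energy to pump protons. Accessory subunits surround this core, and assembly factors help to build the enzyme without remaining in it. In steroid-making adrenal cells, mitochondria also hold the enzymes of the first and last steps of corticosteroid synthesis.

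Some subunit genes were read in alternative forms, and the sequences of 3 of them are given first because they show what the forms change in the coding sequence. Ndufv3, an accessory subunit next to the flavin site, was read in a long form and a short form, which in human cells are known to give a long and a short protein. The long form, Ndufv3-201, includes an exon of 1092 bases at chr17:31527310-31528401 (mm10, plus strand), all of it coding, which is 364 codons and keeps the reading frame. The short form, Ndufv3-202, joins the exons on either side. In the lines that follow, from GENCODE M21 transcripts, capitals mark the start and the end of this exon.

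Ndufv3 short form, exon 2 to last exon: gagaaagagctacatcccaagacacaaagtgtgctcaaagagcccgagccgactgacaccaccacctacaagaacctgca

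Ndufv3 long form, exon 2 to exon 3: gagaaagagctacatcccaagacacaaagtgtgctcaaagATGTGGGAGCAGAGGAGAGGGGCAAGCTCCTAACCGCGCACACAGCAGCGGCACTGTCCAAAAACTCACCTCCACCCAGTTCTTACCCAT

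Ndufv3 long form, exon 3 to last exon: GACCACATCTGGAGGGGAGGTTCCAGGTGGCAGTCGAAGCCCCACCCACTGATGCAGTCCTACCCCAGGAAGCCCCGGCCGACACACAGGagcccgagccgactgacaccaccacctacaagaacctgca

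Ndufa6, an accessory subunit that binds the mitochondrial acyl carrier protein, had a form without its second exon. That exon is 116 bases long, not a multiple of a codon, and the annotated coding sequence is 216 bases without it (Ndufa6-205) and 393 bases with it (Ndufa6-201). The gene is on the minus strand at chr15:82350140-82354322. Capitals mark the second exon.

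Ndufa6 without exon 2: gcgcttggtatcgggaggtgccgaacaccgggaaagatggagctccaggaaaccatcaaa

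Ndufa6 with exon 2: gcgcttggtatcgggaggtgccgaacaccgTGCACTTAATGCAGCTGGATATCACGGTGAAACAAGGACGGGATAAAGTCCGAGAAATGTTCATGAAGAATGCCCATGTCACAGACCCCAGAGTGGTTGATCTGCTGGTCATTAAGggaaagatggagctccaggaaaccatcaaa

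Ndufa11, an accessory subunit of the membrane arm, is on the plus strand at chr17:56717767-56722141 and used different acceptor sites for the third exon. The acceptor of Ndufa11-204 lies 40 bases after that of Ndufa11-201, and the annotated coding sequence is 228 bases with the late acceptor and 429 bases with the early one. Capitals mark the 40 bases that the late acceptor leaves out.

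Ndufa11 late acceptor: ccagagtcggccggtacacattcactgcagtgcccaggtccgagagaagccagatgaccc

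Ndufa11 early acceptor: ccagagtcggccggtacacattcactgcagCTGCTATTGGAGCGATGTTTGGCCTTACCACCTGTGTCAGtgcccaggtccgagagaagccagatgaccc

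**Figure D1:**
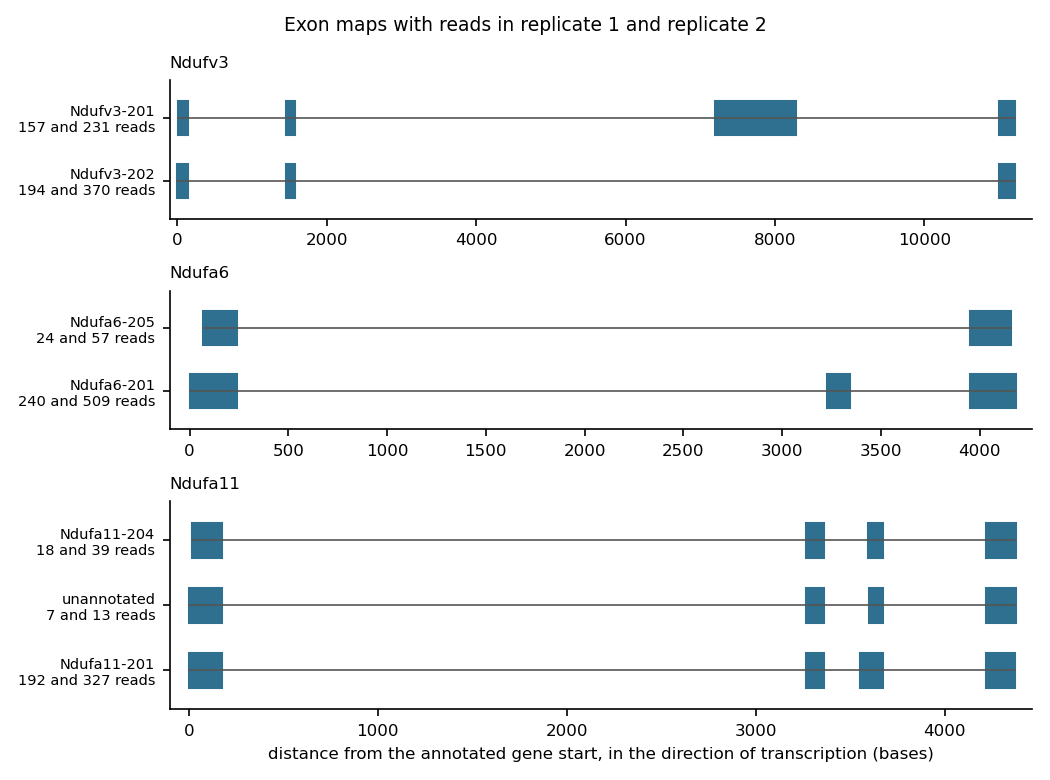
Exon maps of transcript forms of Ndufv3, Ndufa6 and Ndufa11. Boxes are exons, the horizontal axis is the distance in bases from the annotated gene start in the direction of transcription, and the numbers at the left are reads in replicate 1 and replicate 2. The long exon of Ndufv3-201 stands out at 1092 bases, and the unannotated Ndufa11 form had 7 reads in replicate 1 and 13 in replicate 2.

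Together the 47 genes held 14216 reads in replicate 1 and 25178 in replicate 2, which was 2.40% of the reads in replicate 1 and 3.26% in replicate 2. Their summed level was 23971 CPM in replicate 1 and 32612 CPM in replicate 2, or 28292 ± 6111 CPM (SD, n = 2). The 36 core and accessory subunits alone averaged 24448 ± 4983 CPM in sum (SD, n = 2). Their median level, 663 CPM, was above that of 98.1% of the 10567 genes with 10 or more reads summed over both libraries.

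The 7 core subunits encoded in the nucleus differed 2.65-fold between the lowest and the highest. Ndufs7, which carries the last iron-sulfur cluster before ubiquinone, had 680 reads (1147 CPM) in replicate 1 and 1202 reads (1557 CPM) in replicate 2. Ndufv1, which binds the flavin and oxidises NADH, had 1007 CPM in replicate 1 and 1187 in replicate 2. With all models counted, both stood above the other core subunits in each library. Ndufs3, another core subunit of the matrix arm, came next by mean level with 648 CPM in replicate 1 and 975 CPM in replicate 2. The place of Ndufs7 rested on reads that covered its last 2 exons alone, 368 in replicate 1 and 552 in replicate 2. On annotated models only, Ndufs7 had 278 reads in replicate 1 and 584 in replicate 2. That was fewer than Ndufv1, with 522 in replicate 1 and 825 in replicate 2, and Ndufs3, with 355 in replicate 1 and 717 in replicate 2. Ndufs1, the largest core subunit and the holder of several clusters, was lowest at 540 CPM in replicate 1 and 479 CPM in replicate 2. It was also the only core subunit with a higher level in replicate 1 than in replicate 2.

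The 12 accessory subunits named Ndufa without Ndufa4 kept within a narrow band, with a 1.75-fold difference between the highest and the lowest mean level. Ndufa10, a subunit related to nucleoside kinases, led with 791 CPM in replicate 1 and 833 CPM in replicate 2. Ndufa13, also known as Grim-19, had 639 CPM in replicate 1 and 864 in replicate 2. Ndufa2, a small subunit with a thioredoxin-like fold, had 624 CPM in replicate 1 and 826 in replicate 2. The gaps between these 3 in mean level were smaller than the spread of Ndufa13 and of Ndufa2 between libraries. Ndufa11 was lowest, at 401 CPM in replicate 1 and 525 CPM in replicate 2.

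Among the 10 Ndufb genes, whose proteins sit in the membrane arm, the mean level of the highest was 2.29 times that of the lowest. Ndufb3 had 491 reads (828 CPM) in replicate 1 and 1009 reads (1307 CPM) in replicate 2, though most of these reads covered its last exon alone. Ndufb9 had 816 CPM in replicate 1 and 1146 in replicate 2, and Ndufb8 had 811 CPM in replicate 1 and 1089 in replicate 2. The gaps between these 3 in mean level were smaller than the spread of each between libraries. Ndufb5 was lowest, with 391 CPM in replicate 1 and 541 CPM in replicate 2.

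The remaining accessory subunits held the lowest subunit level. Ndufc1, a small membrane arm subunit, had 713 CPM in replicate 1 and 1009 in replicate 2. Ndufv3 had 617 CPM in replicate 1 and 802 in replicate 2, and Ndufc2 had 415 CPM in replicate 1 and 618 in replicate 2. Ndufs5 was lowest of all 36 subunits, with 135 reads (228 CPM) in replicate 1 and 255 reads (330 CPM) in replicate 2. From Ndufs5 to Ndufs7 the subunits spanned 4.85-fold, and 32 of the 36 had a mean level between 300 and 1000 CPM. Ndufab1, the mitochondrial acyl carrier protein, which also serves fatty acid synthesis, had 659 CPM in replicate 1 and 861 in replicate 2.

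The 8 assembly factors were far below the subunits. Their median level was 8.63% of the median of the 38 subunit-named genes in replicate 1 and 8.65% in replicate 2; Ndufa4 and Ndufa4l2 count here among the 38. Per kilobase of model length the share was 5.08 ± 0.75% (SD, n = 2). Ndufaf7, a mitochondrial methyltransferase, was the highest with 71 reads (120 CPM) in replicate 1 and 118 reads (153 CPM) in replicate 2. Ndufaf8 followed with 82.6 CPM in replicate 1 and 101 CPM in replicate 2. Ndufaf1, a component of the assembly complex of the membrane arm, had 59.0 CPM in replicate 1 and 71.2 in replicate 2. Ndufaf5, known in human cells as a hydroxylase of the Ndufs7 protein, was lowest with 8 reads in replicate 1 and 19 in replicate 2. No assembly factor reached the level of any of the 36 subunits in either library.

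Outside these roles, Ndufa4 had the most reads of all members, 1519 (2561 CPM) in replicate 1 and 3136 (4062 CPM) in replicate 2. Its paralog Ndufa4l2, known as a target of hypoxia signalling, was read 30 times in replicate 1 and 36 times in replicate 2. The pseudogene Ndufs6b had 2 reads in each library, under the level of 3 reads, so its presence could not be told at this depth. The order of levels was alike in both libraries: over the 46 members with 10 or more reads, Pearson's r of log2 CPM was 0.99 and Spearman's rho 0.96, and over the 36 subunits alone they were 0.93 and 0.91, a description over genes, which share libraries and depth.

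**Figure D2:**
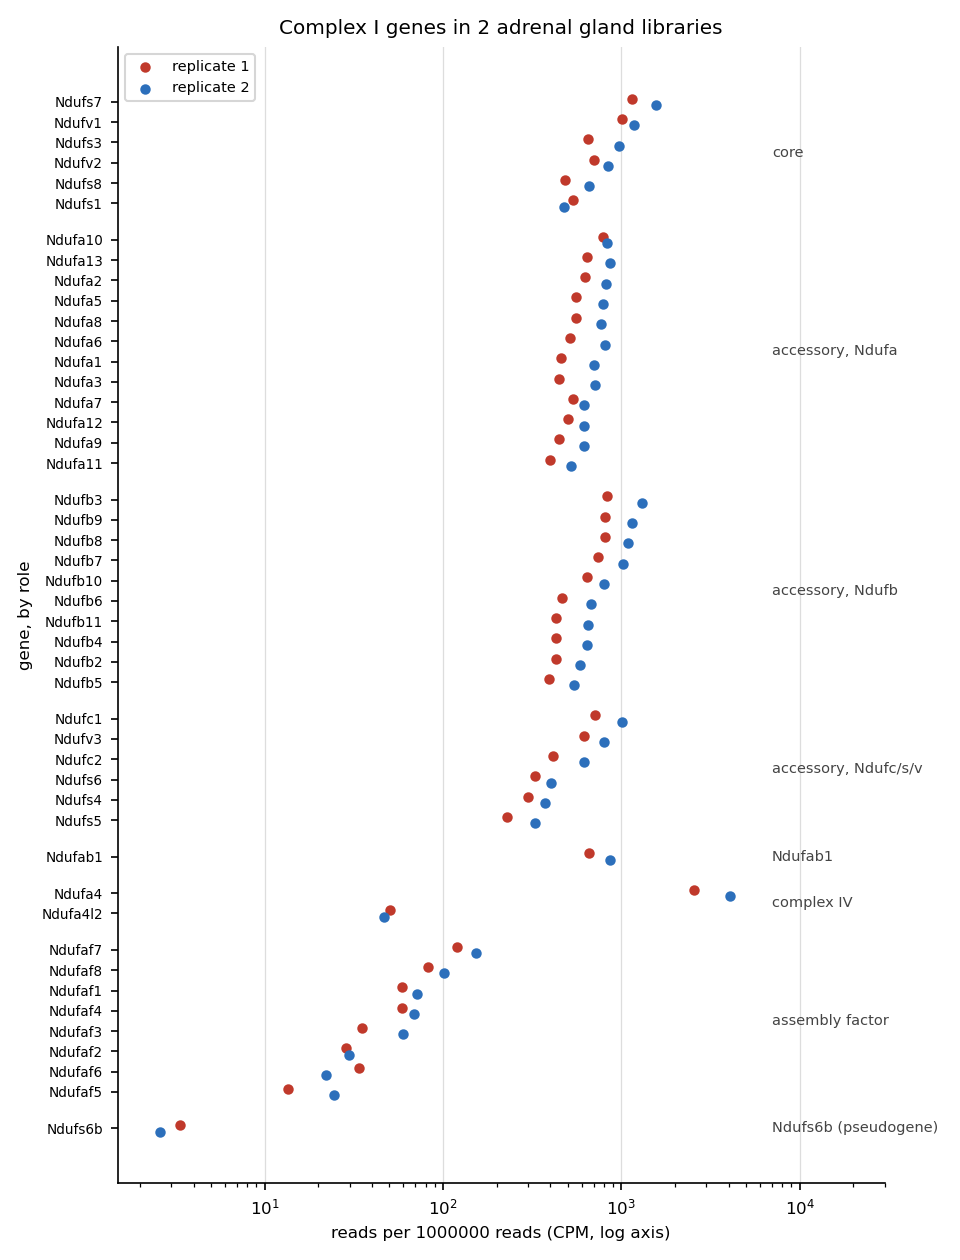
Level of each complex I gene in reads per 1000000 reads (CPM, log axis) in replicate 1 (red) and replicate 2 (blue), grouped by role and ordered by mean level. The 35 subunits drawn lie together, with replicate 1 left of replicate 2 for all but Ndufs1, and the 8 assembly factors lie below them.

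The next question was whether the members differed between the libraries. No member passed the threshold of an adjusted p below 0.05 with a 2-fold ratio in the exact binomial test on reads with Benjamini-Hochberg adjustment over all 10567 genes, of which 410 (3.88%) were called, 306 of them higher in replicate 1. At an unadjusted p below 0.05 the count was 35 of 46 members in the binomial test, beside 17.2% of all tested genes. It was 0 members in edgeR's negative binomial exact test, beside 4.22% of all tested genes, and that test also called 0 members after adjustment. Without the fold minimum, 30 members had an adjusted p below 0.05 in the binomial test. All 30 were lower in replicate 1, a direction that 3.84% of all tested genes took with such a p. With a minimum of 1.5-fold the count was 7 members, all lower in replicate 1, beside 2.05% of all tested genes called lower. In all, 43 of 46 members were lower in replicate 1, beside 5022 of all 10567 tested genes. The members' log2 ratio of replicate 1 over replicate 2 had a median of -0.44, beside 0.04 over all tested genes.

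By role, all 29 accessory subunits were lower in replicate 1, 24 of them with an adjusted p below 0.05 in the exact binomial test, and their median log2 ratio was -0.47. Of the 7 core subunits 6 were lower and 5 had such a p, with a median of -0.27. Of the 8 assembly factors 7 were lower and none had an adjusted p below 0.05 in the binomial test or in edgeR's test. One of them, Ndufaf3, had an unadjusted p below 0.05 in the binomial test, at 21 reads in replicate 1 and 46 in replicate 2. Ndufa4, with 2561 CPM in replicate 1 against 4062 CPM in replicate 2, had a log2 ratio of -0.67 and an adjusted p of 9.24e-49 in the exact binomial test, but an adjusted p of 1 in edgeR's test. Ndufs3, with 648 CPM in replicate 1 against 975 CPM in replicate 2, had a log2 ratio of -0.59 and an adjusted p of 2.28e-09 in the exact binomial test. Ndufs1 had a log2 ratio of 0.17, with no adjusted p below 0.05 in either test.

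Transcript length moved with this ratio. Among all tested genes whose main annotated transcript was up to 600 bases long, the median log2 ratio was -0.31 (344 genes), and among those over 2000 bases it was 0.13 (6532 genes). Between 600 and 1000 bases it was -0.34 over 709 genes, and there the 17 members had a median of -0.47. The 9 members up to 600 bases had a median of -0.40, the 15 between 1000 and 2000 bases -0.35 beside -0.14 for all 2498 genes, and the 4 over 2000 bases -0.14. Members were short: over tested genes with an annotated model, the median was 875 bases for members beside 2591 for all. The part of length in the difference was not tested.

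**Figure D3:**
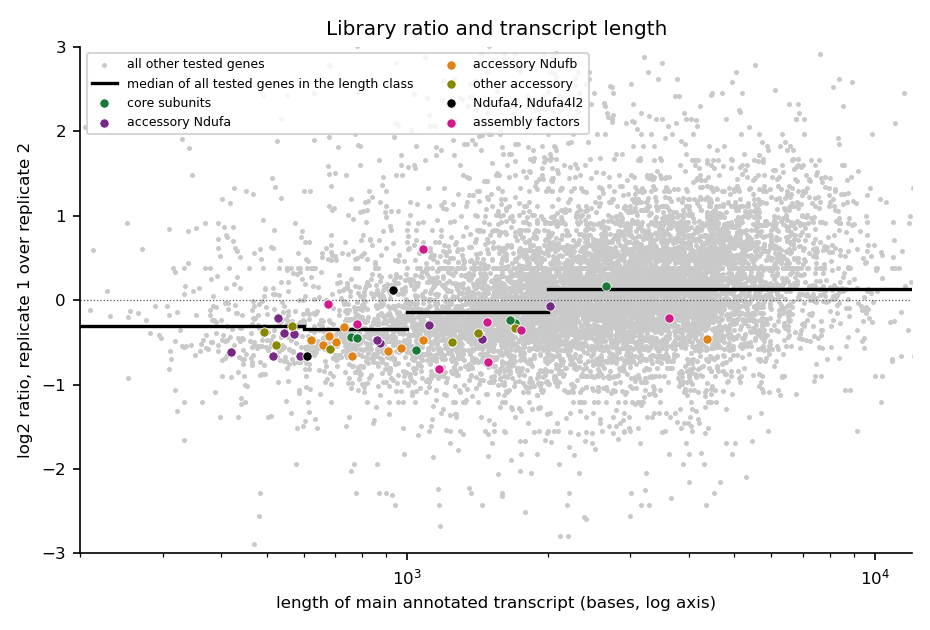
Log2 ratio of replicate 1 over replicate 2 against the length in bases of the main annotated transcript (log axis) for 44 members, coloured by role, over the other tested genes in grey. Black lines are medians of all tested genes in 4 length classes; 165 genes lie outside the axes. Most members lie below 0, as do most genes under 1000 bases; Ndufa4l2, Ndufs1 and Ndufaf6 lie above it.

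Other nuclear genes of the organelle and of the ribosome had similar ratios. These lists were taken by the start of the gene name, so they can hold genes of another function. The 44 tested nuclear genes of complexes II to V had a median log2 ratio of -0.45. It was -0.41 for the 90 genes named as cytosolic ribosomal proteins (Rpl or Rps and a digit). For the 78 named as mitochondrial ribosomal proteins (Mrpl or Mrps and a digit) it was -0.35. In each list 1 gene was called in the exact binomial test, higher in replicate 1 in the first and second lists and lower in the third, and edgeR's test called 0 in each. The complex I subunits that mitochondrial DNA encodes went the other way: all 4 tested were called higher in replicate 1 in the exact binomial test, and edgeR's test called 1. Of these, mt-Nd1 had 267 reads in replicate 1 and 82 in replicate 2, a 4.22-fold ratio. The reads of mt-Nd2 were 196 in replicate 1 and 86 in replicate 2, those of mt-Nd4 were 144 in replicate 1 and 50 in replicate 2, and those of mt-Nd5 were 56 in replicate 1 and 25 in replicate 2. The remaining 3 had at most 3 reads in a library.

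Of the 16 other nuclear genes of complex I that were listed (assembly factors with other names and pseudogene-suffixed subunits), 14 were tested and none was called. By the exact binomial test 2 of them had an unadjusted p below 0.05 and 1 an adjusted p below 0.05, and edgeR's test gave 0 of either. That 1 was Ndufb1-ps, the most read, with 214 reads in replicate 1 and 437 in replicate 2. Tmem70, an assembly factor of ATP synthase and complex I, had 165 reads in replicate 1 and 267 in replicate 2, and Aifm1, which helps to import complex I proteins, had 136 reads in replicate 1 and 202 in replicate 2. Timmdc1, an assembly factor of the membrane arm, had 4 reads in replicate 1 and 7 in replicate 2. No gene with a read in either library had the name Ndufab1-ps or Coa1, and a gene read under another name would be missed. Of 10 listed regulators of respiratory genes, such as Nrf1, Gabpa, Esrra and Ppargc1a, 9 were tested and none had an adjusted p below 0.05 in either test. Esrra, an orphan nuclear receptor, was the most read of these with 143 reads in replicate 1 and 200 in replicate 2.

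Markers of tissues that lie near the gland also differed between the libraries. The 8 liver markers summed to 8100 CPM in replicate 1 and 1304 CPM in replicate 2, with 8 of 8 called in the exact binomial test and 7 having an adjusted p below 0.05 in edgeR's test. The 9 markers of striated muscle summed to 12980 CPM in replicate 1 and 4737 CPM in replicate 2, with 7 of 9 called in the binomial test, Myh4 in the opposite direction to the other 6, and 4 of 9 with an adjusted p below 0.05 in edgeR's test. The 8 kidney markers were all at 0 reads in replicate 1, against a sum of 674 CPM in replicate 2, with 7 of 7 tested called in the binomial test and 6 in edgeR's. The 8 brown fat markers, Ucp1 among them, summed to 9164 CPM in replicate 1 and 12964 CPM in replicate 2 with 0 of 7 tested called by the binomial test or by edgeR's, though 5 had an adjusted p below 0.05 without the fold minimum in the binomial test. Both libraries carried the adrenal markers. The 7 genes of the cortex summed to 16884 CPM in replicate 1 and 20774 CPM in replicate 2, and all 7 were lower in replicate 1. The 6 chromaffin genes summed to 4895 CPM in replicate 1 and 5438 CPM in replicate 2, with 4 lower and 2 higher in replicate 1. Neither test called any of these genes. Without the fold minimum, 4 cortex and 3 chromaffin genes had an adjusted p below 0.05 in the binomial test. In such bulk tissue fewer cells of a type and less RNA per cell cannot be told apart, and the part of these tissues in the complex I levels was not tested.

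Transcript models had been sorted by the authors into annotated ones and several unannotated classes. Reads on annotated transcripts made up 78.9% of complex I reads in replicate 1 (interval 78.2 to 79.5) and 79.7% in replicate 2 (interval 79.2 to 80.2). Over all annotated genes the share was 71.0% in replicate 1 and 75.6% in replicate 2. Spliced incomplete matches, which hold a run of the exons of an annotated transcript, made up 13.6% of complex I reads in each library, beside 10.4% in replicate 1 and 8.50% in replicate 2 over all annotated genes. Most of these complex I reads, 1935 in replicate 1 and 3418 in replicate 2, were on a few genes, so the share does not describe the members in general. Ndufa4 held 743 in replicate 1 and 1685 in replicate 2, Ndufa13 held 365 and 657, and Ndufs7 held 383 and 597. Single-exon models outside the annotation held 4.81% of complex I reads in replicate 1 and 4.52% in replicate 2, beside 10.4% in replicate 1 and 8.21% in replicate 2 over all. Other unannotated spliced models held 2.72% of complex I reads in replicate 1 and 2.17% in replicate 2, beside 8.27% in replicate 1 and 7.66% in replicate 2 over all.

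Of 38 members with 50 or more reads in each library, 23 had over 90% of their reads on annotated transcripts in both libraries. Ndufb7, a membrane arm subunit, was highest with 99.1% in replicate 1 and 99.4% in replicate 2. Ndufb6 had 97.1% in replicate 1 and 99.4% in replicate 2, and Ndufa7 had 97.8% in replicate 1 and 99.2% in replicate 2. The lowest 5 members stood well apart from these, and in each the same unannotated model held many of the reads in both libraries.

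Ndufa13 (chr8:69894180-69902558, minus strand) had no read on its 1 annotated transcript among 379 reads in replicate 1 and 667 in replicate 2. A model of 4 exons, which lacks the annotated first exon of 678 bases, held 355 reads (93.7%) in replicate 1 and 646 reads (96.9%) in replicate 2. In Ndufb3 (chr1:58586384-58595964, plus strand), a model of the last exon alone, 316 bases long, held 358 reads in replicate 1 and 736 in replicate 2, or 72.9% of the gene in each library. The full transcript of 3 exons, Ndufb3-201, held 131 reads in replicate 1 and 267 in replicate 2.

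In Ndufaf7 a single-exon model of 355 bases held 34 of 71 reads in replicate 1 and 57 of 118 in replicate 2. All its single-exon unannotated models together held 36 reads in replicate 1 and 59 in replicate 2, beside 28 reads in replicate 1 and 52 in replicate 2 on the full Ndufaf7-201 of 10 exons. In Ndufs7 a model of the last 2 of 8 exons held 368 reads, 54.1% (interval 50.3 to 57.9), in replicate 1 and 552 reads, 45.9% (interval 43.1 to 48.8), in replicate 2. The full Ndufs7-201 held 273 reads in replicate 1 and 584 in replicate 2. In Ndufa4 a model of the last 2 of 4 exons held 734 reads, 48.3%, in replicate 1 and 1677 reads, 53.5%, in replicate 2, and the full Ndufa4-205 held 745 reads in replicate 1 and 1409 in replicate 2. Whether such models are transcripts of the cell or incomplete cDNA was not tested, and reads of near-identical pseudogene copies, where a gene has them, could have been counted here or lost.

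**Figure D4:**
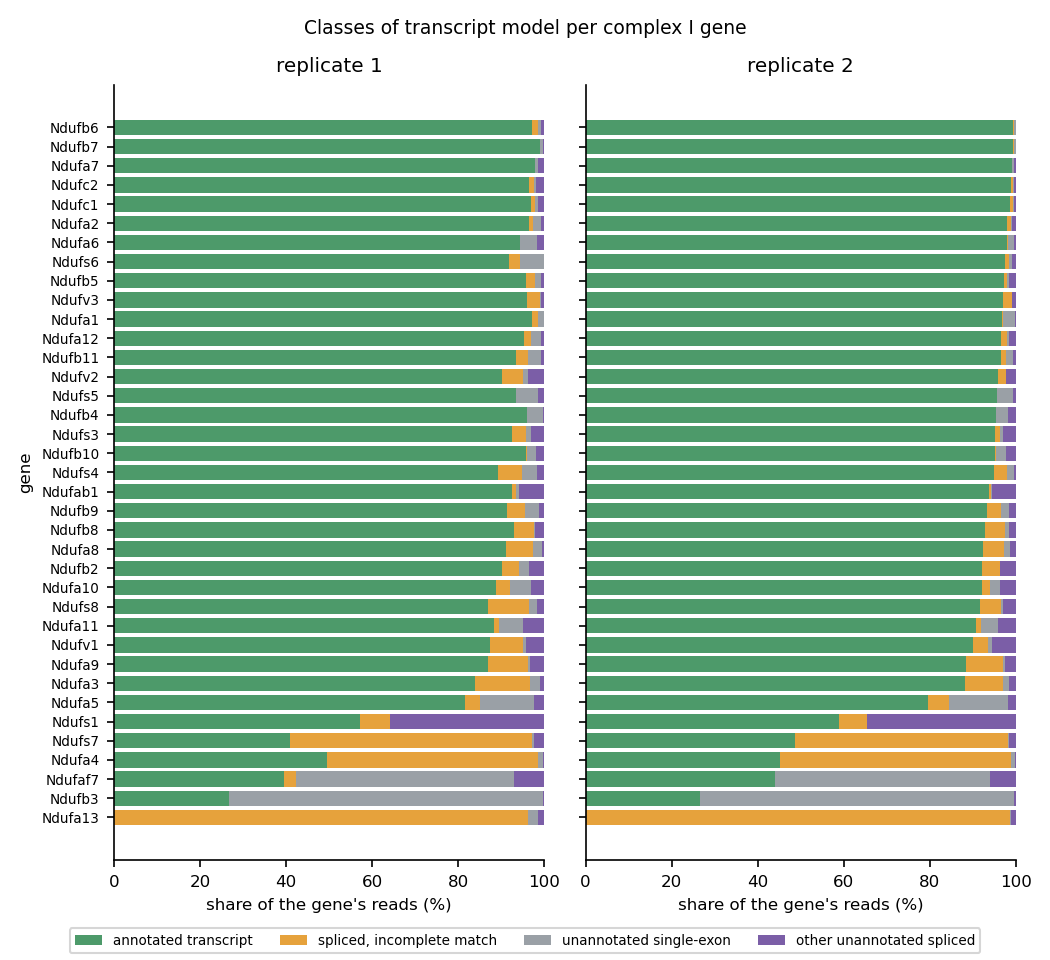
Share of each gene's reads by class of transcript model (horizontal axis in percent) in replicate 1 (left) and replicate 2 (right), for 37 members with 50 or more reads in each library. Most bars are nearly all annotated (green); Ndufa13, Ndufb3, Ndufaf7, Ndufa4 and Ndufs7 are the 5 lowest, in orange for spliced incomplete matches and grey for single-exon models, and Ndufs1 has the widest purple part, of other unannotated spliced models.

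The share of a gene's most read model was compared between the libraries with Fisher's exact test and Benjamini-Hochberg adjustment over all 2162 genes with 50 or more reads in each. Of the 38 members tested 1 was called, and 40 genes (1.85%) were called in all.

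Without a minimum difference, 5 members had an adjusted p below 0.05 in Fisher's exact test, beside 3.7% of all genes tested. Among them were Ndufs7 and Ndufa4, with the values given, and Ndufv2 and Ndufc1. Ndufv2, the iron-sulfur subunit beside Ndufv1, had 89.9% of reads on its main transcript in replicate 1 against 95.7% in replicate 2. Ndufc1 had 94.6% in replicate 1 against 98.1% in replicate 2. The share of the main model was higher in replicate 1 in Ndufs7 and lower in Ndufa4, Ndufv2 and Ndufc1. In Ndufs7 and in Ndufa4 the main model is the unannotated one of 2 exons, and in Ndufv2 and Ndufc1 it is an annotated transcript.

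Among members with 50 or more reads in each library, second annotated spliced transcripts took the largest shares in Ndufv3, Ndufb2, Ndufs1, Ndufs8 and Ndufa11. The long form of Ndufv3 had 157 of 352 informative reads in replicate 1, or 44.6% (interval 39.3 to 49.96), and 232 of 602 in replicate 2, or 38.5% (interval 34.6 to 42.6). The intervals overlapped, and the main transcript test gave the short form 53.0% of all reads in replicate 1 and 59.8% in replicate 2 with an adjusted p of 0.32 in Fisher's exact test. Both forms were read often in each library.

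Ndufb2 (chr6:39592574-39603382, plus strand), a membrane arm subunit, used donor sites 4 bases apart before its last exon. The later site, of Ndufb2-202, had 94 reads, 37.9% of those on either site, in replicate 1 and 193 reads, 42.5%, in replicate 2. Both annotated transcripts have a coding sequence of 315 bases. They also end at different places, and Ndufb2-205 is 4371 bases long beside 455 for Ndufb2-202. Ndufs8 (chr19:3908863-3912774, minus strand), the ferredoxin-like core subunit, used different donor sites at the end of overlapping first exons. The site of Ndufs8-201 had 15.8% of reads in replicate 1 and 19.6% in replicate 2 beside that of Ndufs8-205. Both annotated transcripts have the same coding length of 636 bases.

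The late acceptor of Ndufa11 had 19 reads in replicate 1 and 42 in replicate 2. Set against the 195 reads on the early one in replicate 1 and the 330 in replicate 2, this was 8.88% in replicate 1 and 11.3% in replicate 2. An unannotated acceptor 47 bases after the early one was used by 7 reads in replicate 1 and by 13 in replicate 2. The form of Ndufa6 without its second exon had 24 reads in replicate 1, 9.09% of those that span it (interval 5.91 to 13.2), and 57 in replicate 2, 10.1% (interval 7.72 to 12.9). Ndufa6 was named for this form after its values were seen. These minor forms were each found at a similar share in both libraries.

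Ndufs1 (chr1:63143596-63176833, minus strand) had the most read unannotated spliced models that were no incomplete match. An extra exon of 104 bases at chr1:63172154-63172257, upstream of the annotated start codon, was in 102 reads in replicate 1 and 113 in replicate 2, while 190 reads in replicate 1 and 231 in replicate 2 skipped it. That was 34.9% (interval 29.5 to 40.7) in replicate 1 and 32.8% (interval 27.9 to 38.1) in replicate 2. The exon itself is annotated in Ndufs1-206 and Ndufs1-212, but not with these neighbours. The most read model that holds it had 62 reads in replicate 1 and 61 in replicate 2, and the next 32 in replicate 1 and 41 in replicate 2, with 20 exons each. Reads without the extra exon used different donor sites at the end of overlapping first exons. The site of Ndufs1-203 had 36.0% in replicate 1 and 40.5% in replicate 2 beside that of Ndufs1-201. Both annotated forms have the same coding length of 2181 bases.

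Alternative forms were also read in assembly factors, at low depth; these were chosen after their values were seen. Ndufaf1 reads divided between donor sites of overlapping first exons. The site of Ndufaf1-203 had 11 reads in replicate 1 and 23 in replicate 2, and that of Ndufaf1-202 had 18 in replicate 1 and 23 in replicate 2. Ndufaf4, which works with Ndufaf3 in assembly, had 16 reads in replicate 1 and 24 in replicate 2 on the coding Ndufaf4-201. It had 12 reads in replicate 1 and 16 in replicate 2 on Ndufaf4-202, annotated without a coding sequence. The counts are too small to place these shares closely.

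**Figure D5:**
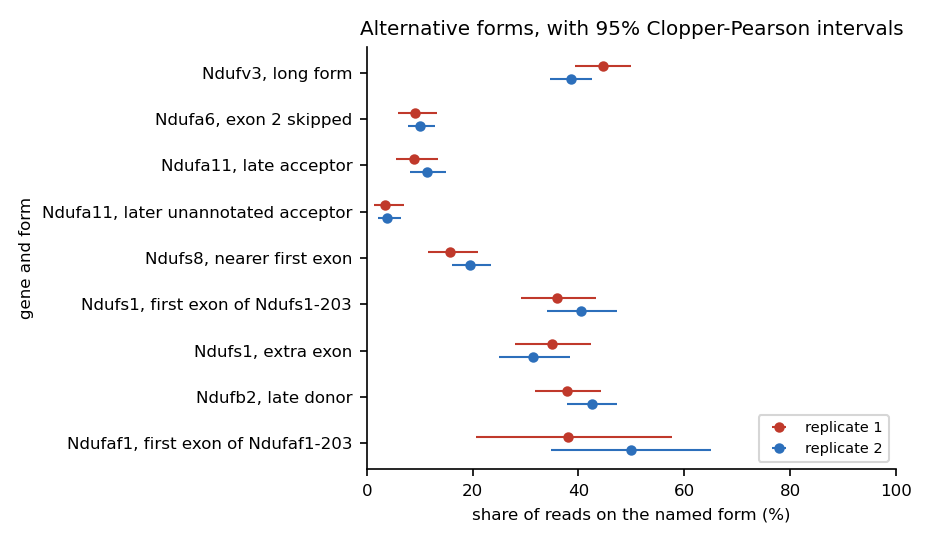
Share of reads on the named alternative form in replicate 1 (red) and replicate 2 (blue) with 95% Clopper-Pearson intervals. It is in percent of reads that tell the form from the one it is set against. First exon labels of Ndufs8, Ndufs1 and Ndufaf1 stand for donor sites of overlapping first exons. The extra Ndufs1 exon is drawn for reads with the first donor site of Ndufs1-201 only. The intervals of the libraries overlap for all 9 forms, with the later Ndufa11 acceptor at 3.47% in replicate 1 and 3.79% in replicate 2 and long Ndufv3 at 44.6% in replicate 1 and 38.5% in replicate 2.

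The promoters of the members, as RefSeq gives them (GRCm38.p6, 250 bases before to 50 after the start), were searched on both strands for letters typical of factors known to control respiratory genes. A promoter was found for 40 of the 47 members, 42 promoters in all. Each promoter counts once per motif, and letters of different factors can overlap. The NRF1-type letters GCGCANGCG stood in 11 of the 42, or 26.2%, beside 6.25% of all 32851 promoters. The YY1-type letters AAGATGGCG stood in 6, or 14.3%, beside 1.40% of all. The GABPA-type letters CCGGAAG stood in 6, or 14.3%, beside 8.86%, and the ERR-type letters AAGGTCA in 3, or 7.14%, beside 4.72%. Letters of NF-Y (ATTGGCTG) were in 5, or 11.9%, beside 3.82%, and those of SP1 (CCGCCC) in 22, or 52.4%, beside 35.7%. A match is a description of the letters and shows no binding.

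Promoters of 3 members are shown, with NRF1-, YY1-, GABPA- and ERR-type letters in capitals on either strand. Ndufb4, a membrane arm subunit (chr16:37654319-37654618, minus strand), has the NRF1-type letters 191, 79 and 22 bases before the start and the ERR-type letters 55 bases before it. Ndufs7, the core subunit with the most reads when all models are counted (chr10:80249199-80249498, plus strand), has the YY1-type letters 24 bases after the start. Ndufs8 (chr19:3912725-3913024, minus strand) has the GABPA-type letters on the reverse strand 15 bases after the start. None of these matches overlap.

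Ndufb4 promoter: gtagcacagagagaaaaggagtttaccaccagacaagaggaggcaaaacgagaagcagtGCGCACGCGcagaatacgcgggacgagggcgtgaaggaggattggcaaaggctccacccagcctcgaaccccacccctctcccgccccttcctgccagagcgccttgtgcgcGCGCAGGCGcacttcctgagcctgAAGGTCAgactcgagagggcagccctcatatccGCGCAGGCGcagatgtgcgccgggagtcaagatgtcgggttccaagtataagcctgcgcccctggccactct

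Ndufs7 promoter: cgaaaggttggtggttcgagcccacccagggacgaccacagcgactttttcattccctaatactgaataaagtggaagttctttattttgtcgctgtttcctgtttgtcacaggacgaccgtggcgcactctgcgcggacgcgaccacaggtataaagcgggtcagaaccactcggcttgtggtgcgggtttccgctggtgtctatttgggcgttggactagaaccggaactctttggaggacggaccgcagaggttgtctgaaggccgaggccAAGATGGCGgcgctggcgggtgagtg

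Ndufs8 promoter: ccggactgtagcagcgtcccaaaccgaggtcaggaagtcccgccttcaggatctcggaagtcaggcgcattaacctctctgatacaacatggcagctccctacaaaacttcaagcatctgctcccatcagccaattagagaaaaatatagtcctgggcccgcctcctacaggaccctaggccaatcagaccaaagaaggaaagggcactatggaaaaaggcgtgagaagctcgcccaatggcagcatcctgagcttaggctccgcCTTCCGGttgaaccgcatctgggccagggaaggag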

How the data were processed

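Long-read RNA-seq was made from adrenal gland tissue, 2 libraries of 1 group. The authors deposited, per library, a table of raw read counts per transcript model with its class, length and exon number, and an annotation of the models (mm10, GENCODE M21, per the file headers). No aligner or caller was named in the labels or headers. Counts were summed per annotated gene. Models on spike-in sequences were left out. CPM divides by all other reads.

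The libraries were compared with a two-sided exact binomial test (p summed over outcomes no likelier than the one seen) on genes with 10 or more reads summed (SciPy 1.17.1, Python 3.11.15; log2 ratios with a pseudocount of 0.5 reads), with edgeR 4.0.16 in R 4.3.3 as the alternative (a common dispersion of 0.063 from both libraries), and main transcript shares with Fisher's exact test. A quasi-likelihood test has no residual degrees of freedom here. P-values were adjusted by Benjamini-Hochberg. Models were matched between libraries by transcript ID or identical introns, and a gene's unannotated single-exon models were pooled. Spliced forms were counted from reads that hold the introns particular to a form. The tests were also run on simulated counts without a spread between libraries, which cannot show how they behave with such a spread.

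Members, roles and lists were chosen with earlier results of these data known. Values were printed for the highest 3 and the lowest gene of each role, genes called, the 5 with the largest second spliced transcript, the 5 unannotated spliced models with most reads, and the 5 lowest and 3 highest by annotated share. Length classes, promoter letters and spliced forms were chosen after the data were seen. Results of 1 member are not reported here; it remains in counts, medians and sums.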

Additional observations from a re-analysis of the deposited data

How the results depend on the processing

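The count of 0 members called was also 0 with edgeR's exact test, 50 or more reads, no read filter, TMM totals, annotated models only and models of 2 or more exons. No member reached a 2-fold ratio, as the log2 ratios ran from -0.82 to 0.61. With that minimum kept, edgeR's test, the read filters and TMM totals could call no member, whatever the p. By adjusted p alone, edgeR's test also gave 0 members. The count became 30 with no minimum ratio and 7 at 1.5-fold, all lower in replicate 1. Of all tested genes, 3.84% and 2.05% were called lower under these settings. For all genes, where 410 were called, the count was 132 in edgeR's test, 782 without a minimum ratio, 572 at 1.5-fold, 199 at 50 or more reads and 273 with annotated models only. Without a minimum difference in main transcript share, 5 members and 80 genes were called, against 1 and 40; the count for all genes was 22 at 20 or more reads in each library and 14 with models of 2 or more exons. The median level of assembly factors was 8.64% of that of the subunits; it was 5.08% per kilobase, 8.23% with annotated models only, 8.45% with models of 2 or more exons, 8.28% as a mean over genes and 8.88% with low members included. The annotated share of 79.3% was 91.7% as a median over genes, 83.2% over models of 2 or more exons and 83.5% without Ndufa4 and Ndufa4l2. Leaving out a library gave summed levels of 23971 to 32612 CPM, level ratios of 8.63% to 8.65% and annotated shares of 78.9% to 79.7%. The causes of these moves were not tested. In an alternative chosen after seeing the data, the doubled smaller tail as the binomial p gave 366 genes and 0 members. There too the 2-fold minimum left no member that could be called. None of the 45 members reported was called with edgeR's test, TMM totals, annotated models only or models of 2 or more exons (179 values). Ndufa13 has no annotated reads and was not tested with annotated models only. Ratios kept their sign with annotated models only and with models of 2 or more exons. The other settings could not turn a sign. EdgeR's test was set beside the same ratios, and TMM scaling shifted all log2 ratios by -0.04, less than any positive ratio of these members. No paired analysis was possible because the labels give 1 group. With 2 libraries and under 1000000 reads each, forms and genes under about 50 reads carry wide counting error, and no spread between animals can be estimated apart from the library difference.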
